A study of Mus musculus with 9 samples.

Results

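Elongating spermatids (ES) were compared with pachytene spermatocytes (PAC), the 2 ends of the course from meiotic prophase to sperm shaping that were sampled in wild-type mouse testis. The comparison took all 3 ES and all 3 PAC libraries, 6 of the 9 in the series, and every feature of the count table: 50493 features, of which 26030 had enough counts to be tested. The other 3 libraries, from round spermatids (RS), helped to estimate the spread between replicates and are given beside the ends as a level in between. The groups differ in cell type alone by their labels, with no treatment. The sources used here give neither the method of cell isolation nor the number of animals per library. Replicates are called biological by the submitters, with nothing on which animals they came from, so p-values measure only the spread between these libraries.

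A pachytene spermatocyte pairs its homologous chromosomes along the synaptonemal complex and repairs programmed breaks as crossovers, and it transcribes its autosomes heavily while the X and Y chromosomes are silenced in the sex body. After 2 divisions the haploid spermatid grows an acrosome and a tail. As the nucleus condenses during elongation, histones give way to transition proteins and then to protamines, transcription shuts down, and many mRNAs made earlier are kept in store and translated late. The RNA of an elongating spermatid is therefore in part a stored pool, and the difference from the pachytene cell is a net change over both later meiosis and spermiogenesis.

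Total RNA without ribosomal RNA was sequenced with strand kept, and total counts ran from 22910156 to 33801617 per library. Levels are given as counts scaled to library size with TMM factors (CPM), as 3 libraries in the order of their replicate numbers or as mean ± SD (n = 3). Libraries of a cell type ranked features alike, with Spearman coefficients across features of 0.946 to 0.984, values across genes and not over independent samples. ES replicate 1 stood apart: assembled transcripts with no known gene took 11.2% of its counts, against 5% and 6.43% in the other ES libraries and 6.17% to 6.41% in PAC, and its TMM factor of 0.758 was the lowest of the 9. Long transcripts also differed between replicates of a cell type. Over 757 coding genes with a transcript above 8000 bases the median difference of replicate 3 over replicate 1 was 0.56 on the log2 scale in PAC and 0.47 in ES, while over 932 genes of at most 1000 bases it was -0.36 and -0.31.

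Of the 26030 features tested, 7976 were higher in ES (30.6%) and 8778 lower (33.7%) by edgeR's quasi-likelihood test at an adjusted p below 0.05, and 9276 were not called. Scaling by upper quartiles gave 9528 higher and 6931 lower, and it moved the median of all features from a log2 fold change of -0.09 to 0.21. Total counts alone moved that median to -0.38. All folds here are therefore relative to the bulk of each library, and in bulk RNA fewer cells of a type cannot be told apart from less RNA per cell. Gains were fewer among coding genes but larger. Of 14836 protein-coding genes tested 3741 (25.2%) were higher and 6323 (42.6%) lower. Their median log2 fold change was -0.39, and upper-quartile scaling gave 4655 and 5021. At 4-fold or more the order turned, with 1459 coding genes higher (9.83%) and 570 lower (3.84%), and at 16-fold or more there were 168 (1.13%) and 24 (0.162%).

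The features higher in ES held 16.4%, 18.5% and 17.2% of the counts of the PAC libraries, 39.6% ± 0.302 of those of RS, and 67.7%, 57.7% and 58.1% of those of ES. The features that were lower held 61.6% ± 2.16 of PAC, 36.6% ± 0.196 of RS and 22.4% ± 3.97 of ES counts. These shares describe the calls and add no test to them. The ES pool was also more concentrated: 288, 479 and 483 features made up 50% of the counts of ES replicates 1, 2 and 3, against 845, 932 and 940 in PAC.

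**Figure D1:**
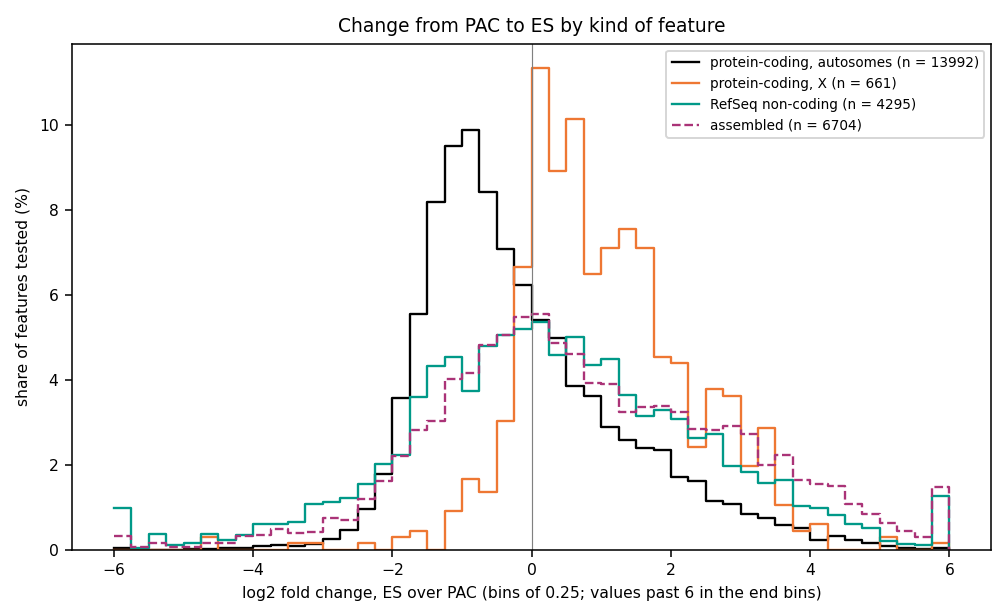
Histogram of the log2 fold change of ES over PAC (x axis) as a share of the features tested of each kind in percent (y axis), for protein-coding genes on autosomes, protein-coding genes on X, RefSeq non-coding transcripts and assembled transcripts. Autosomal coding genes peaked below 0 with a long tail of gains, while the coding genes of X, with a median of 0.95, lay mostly above 0.

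**Figure D2:**
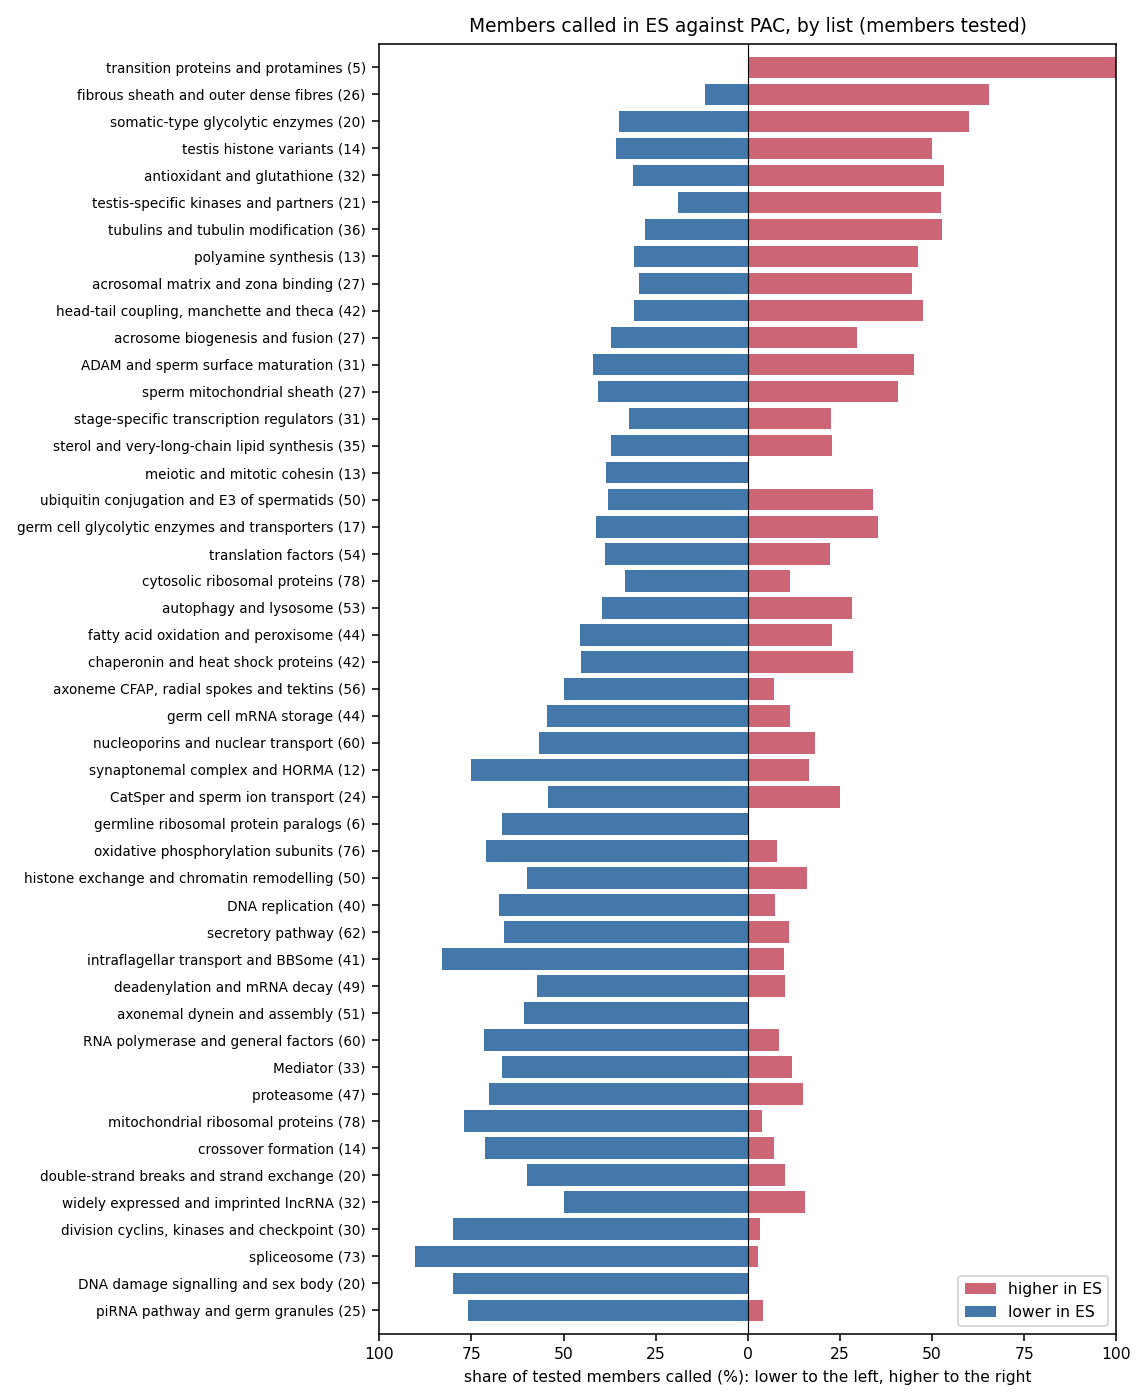
Share of the tested members of each of 47 pathway lists called lower (bars to the left) and higher (bars to the right) in ES against PAC, in percent (x axis), ordered by the list's median log2 fold change. The number of members tested stands after each name. All 5 transition protein and protamine genes were higher, and 66 of 73 spliceosome genes were lower.

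Nuclear condensation genes had the highest median of the 47 pathway lists. All 5 transition protein and protamine genes rose, with a median log2 fold change of 4.26. Transition proteins displace histones for a time and protamines, small arginine-rich proteins, then pack the sperm genome. Prm1, protamine 1, was at 446, 610.3 and 372 CPM in the PAC libraries, 4335 ± 460 in RS and 17290, 9474 and 8353 in ES. Every ES library lay above every PAC library, and ES replicate 1 was the highest (log2 fold change 4.62 with an SE of 0.31, edgeR adjusted p = 8.05e-07). Prm2 went from 79.7, 125 and 106 to 3808, 2532 and 3053 CPM (log2 fold change 4.92, adjusted p = 3.08e-08). Tnp1, transition protein 1, stood at 500.5, 644 and 388 CPM in PAC and 16190, 7643 and 5475 in ES (log2 fold change 4.26, adjusted p = 1.03e-05). Both groups were apart for Prm2 and Tnp1 too, and the PAC libraries were not empty of these spermatid mRNAs. Per length, Prm1 and Tnp1 were the most abundant of the coding genes named here in ES, at 24360 ± 7170 and 19090 ± 8800 FPKM (fragments per kilobase, scaled to depth), against 2369 ± 122 FPKM for the elongation factor gene Eef1a1.

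The 150 bases before the start are shown from RefSeq on build GRCm38.p6 for 4 of the 10 most abundant coding genes that rose (Prm1, Tnp1, Akap4 and Crisp2) and 2 of the 10 most abundant that fell (Ldha and H1f6). They were picked after all had been read, to show windows of both kinds with and without the letters TGANNTCA, a loose form of the cyclic AMP response element that CREM, a spermatid activator, is known to bind. The letters too were chosen after windows had been read. Sequences run 5′ to 3′ on the gene's strand, and capitals mark TGANNTCA on either strand and, in Crisp2, TATAAA on the gene's own.
Prm1, chr16:10796824-10796973, minus strand: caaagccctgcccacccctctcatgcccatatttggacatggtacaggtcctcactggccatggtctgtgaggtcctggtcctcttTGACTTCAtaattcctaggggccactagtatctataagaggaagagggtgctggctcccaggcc
Tnp1, chr1:73015900-73016049, minus strand: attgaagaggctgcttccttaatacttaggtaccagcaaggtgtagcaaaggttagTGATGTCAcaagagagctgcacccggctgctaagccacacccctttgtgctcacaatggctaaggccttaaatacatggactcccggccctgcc
Akap4, chrX:7067365-7067514, plus strand: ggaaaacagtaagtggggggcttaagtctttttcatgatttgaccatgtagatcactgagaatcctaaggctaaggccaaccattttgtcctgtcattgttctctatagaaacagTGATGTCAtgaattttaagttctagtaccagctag
Crisp2, chr17:40794147-40794296, minus strand: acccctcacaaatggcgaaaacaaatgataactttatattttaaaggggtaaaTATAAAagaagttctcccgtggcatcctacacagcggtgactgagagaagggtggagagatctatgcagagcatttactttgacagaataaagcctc
Ldha, chr7:46845654-46845803, plus strand: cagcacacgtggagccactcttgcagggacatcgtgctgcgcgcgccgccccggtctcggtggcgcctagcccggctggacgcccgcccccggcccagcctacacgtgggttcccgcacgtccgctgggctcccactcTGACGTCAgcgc
H1f6, chr13:23695661-23695810, plus strand: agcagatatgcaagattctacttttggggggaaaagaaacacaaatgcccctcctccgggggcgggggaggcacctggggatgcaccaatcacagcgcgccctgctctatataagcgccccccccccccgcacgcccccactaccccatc
TGANNTCA began 64 bases before the start in Prm1, 94 in Tnp1, 35 in Akap4 and 12 in Ldha. The start used for Ldha lay 3530 bases from the start of its gene model. For the other genes printed here that distance was 0. In these 150 bases TGANNTCA stood in 3 of the 9 windows found for the 10 most abundant risers. It stood in 1, that of Ldha, of the 5 found for the 10 most abundant genes that fell. The share was 7.9% of the 11981 coding genes tested that had a window. Over whole windows of 250 bases before to 50 after the start, searched on both strands, the letters stood in 12.6% of those genes, in 16.6% of those that rose 4-fold or more, in 14.4% of all that rose and in 10.6% of those that fell. The full element TGACGTCA was in 3.04% of all, 2.38% of the 4-fold risers and 3.59% of the genes that fell. Genes that fell 4-fold or more had TGANNTCA in 13% and TGACGTCA in 2.87%. The median number of CG pairs per window was 10 for 4-fold risers and 15 for genes that fell 4-fold or more. It was 15 for all risers, 21 for all genes that fell and 19 for all. At most 5 pairs stood in 36% of the 4-fold risers and 23.8% of the genes that fell 4-fold or more. The shares were 25.8% of all risers, 9.48% of all that fell and 22.7% of those not called. A match is a description of letters, not a site, and no test was made of these shares.

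Testis histone variants moved both ways. Of 14 tested, 7 rose (50%) and 5 fell (35.7%), beside 25.2% and 42.6% of all coding genes. With upper quartiles 3 fell. Linker histones of spermatids were among the risers. H1f7, the linker histone H1T2 that is needed for spermatid condensation, went from 202, 265 and 189 CPM in PAC to 3411, 1728 and 1743 in ES (log2 fold change 3.39, adjusted p = 1.92e-06). Hils1, a linker-like spermatid histone, went from 261, 335 and 249.5 to 2183, 1330 and 1123 CPM (log2 fold change 2.46, adjusted p = 4.83e-06). H1f6, the linker histone H1t of spermatocytes, ran the other way, from 2155, 1679 and 1261 CPM in PAC to 269, 306 and 247 in ES (log2 fold change -2.63, adjusted p = 6.92e-07). Its level in RS was lower than at either end, 16.7 ± 0.690 CPM. H2bc1, the testis H2B of the nucleosomes that are later removed, fell from 606 ± 136 to 133 ± 33.1 CPM, a log2 fold change of -2.19. H2al2a, whose protein works with transition proteins, is 1 of several near-identical copies, so its log2 fold change of 4.24 may mix reads of its relatives.

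The machinery that exchanges and remodels chromatin mostly fell, with 30 of 50 lower and 8 higher (median -0.89). Among the exceptions was Chd5, a remodeller required for histone removal, at 23.5, 44.2 and 67.9 CPM in PAC and 145, 151 and 208 in ES (log2 fold change 1.89, adjusted p = 0.000425). Cdyl, a chromodomain reader, rose by a log2 fold change of 2.64 and Hmgb4, a spermatid HMG-box protein, by 3.12. Brdt, the bromodomain protein that binds hyperacetylated histones, was at 289, 279.5 and 328 CPM in PAC and 197, 213 and 234 in ES (log2 fold change -0.48, adjusted p = 0.00515), a fall that upper-quartile scaling took to -0.17 (adjusted p = 0.243) and ES and PAC alone did not call (adjusted p = 0.182). Kdm3a, a demethylase that acts upstream of Tnp1 and Prm1, fell, with a log2 fold change of -1.43.

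**Figure D3:**
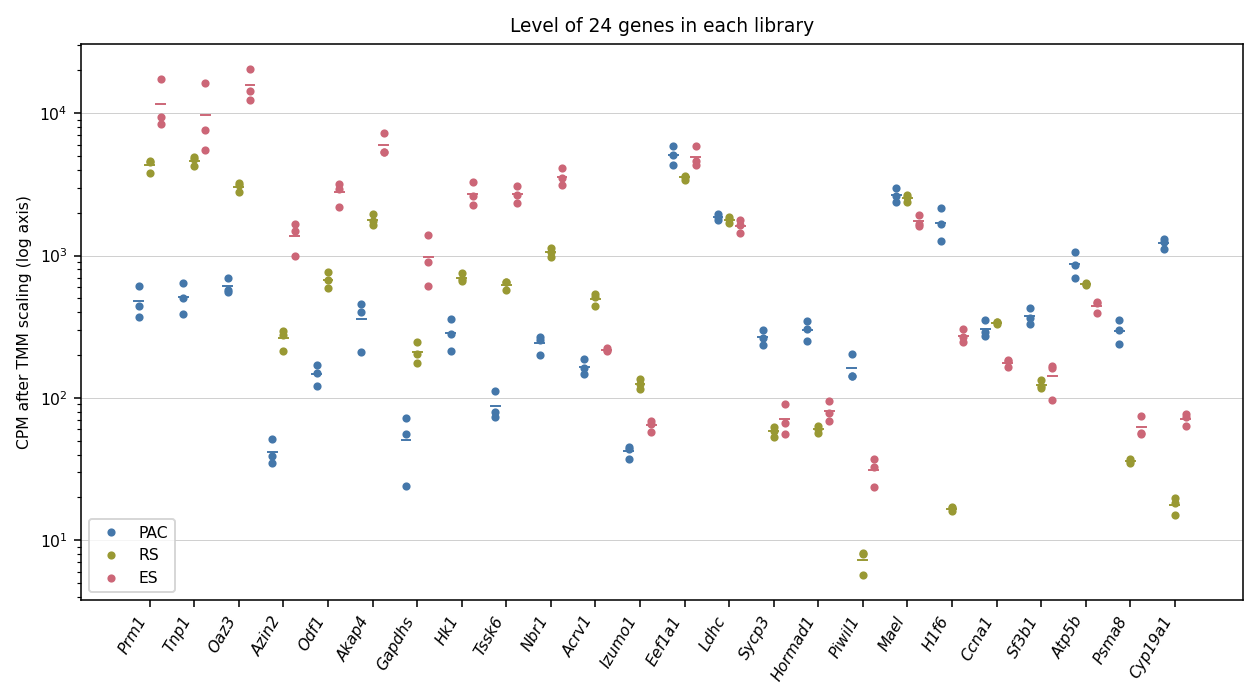
Level of 24 genes in each of the 9 libraries, in CPM after TMM scaling on a log axis. Points are libraries, short lines are means of 3. The genes on the left, from Prm1 to Nbr1, were higher in ES than in PAC, and H1f6, Piwil1, Psma8 and Cyp19a1 were lower in RS than at either end.

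Tail scaffold genes had the next highest median of those lists. Of 26 genes of the fibrous sheath and outer dense fibres, the cytoskeleton that stiffens the tail, 17 rose and 3 fell, or 5 with total counts (median 1.68). Odf1, a main outer dense fibre protein, stood at 122, 169 and 149.6 CPM in PAC, 677 ± 85.6 in RS and 3194, 2955 and 2197 in ES (log2 fold change 4.24 with an SE of 0.20, adjusted p = 4.47e-08). Akap4, the X-linked anchor that makes up most of the fibrous sheath, was at 210.4, 403 and 460.3 CPM in PAC and 5346, 5332 and 7295 in ES (log2 fold change 4.07, adjusted p = 8.48e-07). Its partner Akap3 rose less, from 138, 202 and 221 to 665, 546 and 624 CPM (log2 fold change 1.71). In none of these did the groups overlap. Akap3 had already reached 579.9 ± 24.4 CPM in RS. Cabs1, a calcium-binding flagellar protein, rose by 4.89 on the log2 scale. Fsip2, a giant sheath protein, was not called: 663, 1185 and 2261 CPM in PAC and 458, 1038 and 1625 in ES, with replicate 3 the highest in both cell types (log2 fold change -0.40, adjusted p = 0.501).

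Genes of the axoneme, the motor core of the tail, were more often lower than higher. Of 51 axonemal dynein and assembly genes 31 fell (median -0.95). None rose by edgeR with all libraries and TMM factors, but other settings called up to 4 higher: 3 with upper quartiles and 4 without PAC replicate 3. Assembly factors were among the genes that fell: Dnaaf6, needed to preassemble dynein arms in the cytoplasm, went from 65.2, 51.2 and 47.5 to 7.95, 10.4 and 9.94 CPM (log2 fold change -2.53, adjusted p = 5.33e-07), and Zmynd10, another assembly factor, fell, with a log2 fold change of -1.88. Dnah8, an outer arm heavy chain of sperm with a very long mRNA, was at 711, 1421 and 3293 CPM in PAC and 408, 961 and 1491 in ES. Replicate 3 was the highest and replicate 1 the lowest in both cell types, the groups overlapped, and the difference was not called (log2 fold change -0.92, adjusted p = 0.186). Dnah1 and Dnah17 showed the same order of replicates and were not called either (adjusted p = 0.209 and 0.143). With replicates as a block all of these heavy chains were lower, Dnah1 by a log2 fold change of -0.82 (adjusted p = 0.0433), Dnah8 by -0.85 (0.0442) and Dnah17 by -0.93 (0.0256). Without PAC replicate 1 they were lower too (adjusted p = 0.0449, 0.0358 and 0.0329).

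Of 56 genes for cilia-associated proteins, radial spokes and tektins, 28 fell (50%) and 4 rose (7.14%), beside 42.6% and 25.2% of all coding genes. Risers numbered 8 by upper quartiles and 2 by total counts. Rsph1, a radial spoke head protein, went from 539, 424 and 403 to 139, 128 and 154 CPM (log2 fold change -1.70, adjusted p = 4.06e-06). Cfap69, by contrast, rose from 397, 392 and 419.8 to 658, 644 and 597 CPM (log2 fold change 0.65, adjusted p = 0.000363). Intraflagellar transport, which carries parts along a growing flagellum, had the largest share of losses among the tail lists: 34 of 41 genes of the transport trains and the BBSome were lower and 4 higher (median -0.94). Ift88, a train core subunit, went from 78.3, 88.5 and 97.1 to 38, 50 and 58.2 CPM (log2 fold change -0.85, adjusted p = 0.000781). Bbs1 fell, with a log2 fold change of -2.34, whereas Bbs9, a subunit of the same complex, rose from 287, 252 and 239 to 1023, 814 and 652 CPM (log2 fold change 1.68, adjusted p = 6.19e-06). The 2 subunits thus moved in opposite directions, with no overlap between ES and PAC for either.

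Genes of the head-tail junction, the manchette (a transient microtubule skirt that shapes the nucleus) and the perinuclear theca numbered 42 tested. Of these 20 rose (47.6%) and 13 fell (31%), beside 25.2% and 42.6% of all coding genes. With upper quartiles 8 fell. Spem1, needed to shed cytoplasm from the head, went from 61.05, 71.01 and 48.1 CPM in PAC to 1640, 902 and 908 in ES (log2 fold change 4.26, adjusted p = 3.55e-07). Its neighbour in name, Spem2, rose by 4.92 on the log2 scale. The theca genes Actrt1, Actrt2, Actrt3 and Actl9, actin relatives of the sperm head, rose by log2 fold changes of 3.05, 2.996, 3.01 and 2.86. Hook1, a manchette linker, rose by 2.20. Meig1, which brings cargo to the manchette, was at 3169, 2581 and 2214 CPM in PAC and 3805, 2327 and 2000 in ES and was not called (adjusted p = 0.913).

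Tubulin genes moved both ways. Of 36 tubulin and tubulin-modifying genes 19 rose (52.8%) and 10 fell (27.8%), beside 25.2% and 42.6% of all coding genes. Tuba3a and Tuba3b, near-identical testis alpha-tubulins whose reads cannot be fully separated, fell, with log2 fold changes of -1.20 and -1.33. Tuba8 rose by 2.96 and Tuba4a by 3.15. Tubb3 and Tuba1a, known from neurons, rose by 3.38 and 3.03. Tubb4b, the abundant axonemal beta-tubulin, was not called at 1642, 1565 and 1472 CPM in PAC and 1760, 1453 and 1433 in ES (adjusted p = 0.949), though total counts called it lower (-0.31, adjusted p = 0.0273). Tubg2 was without counts in PAC and at 1.03, 0.799 and 0.757 CPM in ES, at least 8.30-fold higher against a floor of 3 counts per library.

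The midpiece list was divided. Of 27 genes of the sperm mitochondrial sheath 11 rose (40.7%) and 11 fell (40.7%), beside 25.2% and 42.6% of all coding genes. Structural genes were among the risers. Smcp, the cysteine-rich capsule protein of sperm mitochondria, went from 51.9, 88.2 and 122 to 840.4, 1114 and 1589 CPM (log2 fold change 3.76, adjusted p = 5.34e-06). Spata18 rose by 4.73 and Klc3, a kinesin light chain that binds mitochondria to the dense fibres, by 3.22. Testis isoforms of respiratory proteins were among the genes that fell: Cyct, testis cytochrome c, went from 256, 191 and 149 to 54.6, 57.2 and 46.4 CPM (log2 fold change -1.91, adjusted p = 6.26e-06), and Cox6b2 and Slc25a31 fell, with log2 fold changes of -1.22 and -1.54. Cycs, the somatic cytochrome c, rose from 27.6, 17.5 and 12.4 to 106, 104 and 94.5 CPM (log2 fold change 2.40, adjusted p = 8.1e-06), with 13.8 ± 1.22 in RS. The Sertoli marker sum below had the same order of mean levels, and the part of other cells in the rise of Cycs was not tested.

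Kinases of late spermatids were more often higher than lower, 11 of 21 higher (52.4%) and 4 lower (19%). The shares of all coding genes were 25.2% and 42.6%. Leaving out ES replicate 1 left 2 of the 21 lower, and upper quartiles 1. Tssk6, a kinase needed for DNA condensation, stood at 79.2, 112 and 73.4 CPM in PAC, 626 ± 47.5 in RS and 3098, 2653 and 2351 in ES (log2 fold change 4.94 with an SE of 0.20, adjusted p = 2.22e-08). Tssk3 and Tssk2 rose by 3.73 and 3.21, and Tssk1 by 1.47. Prkar2a, the type II regulatory subunit of protein kinase A that docks on the sheath anchors, went from 21.6, 35.6 and 29.1 to 664, 467 and 641 CPM (log2 fold change 4.36, adjusted p = 6.2e-08). The type I subunit Prkar1a and the catalytic subunit Prkaca fell, with log2 fold changes of -0.55 and -0.66.

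Acrosome genes moved both ways, and Acrv1 and Izumo1 had their highest mean level in RS. Of 27 genes of the acrosomal matrix and zona binding 12 rose (44.4%) and 8 fell (29.6%) between PAC and ES. Of 27 for acrosome formation and gamete fusion 8 rose (29.6%) and 10 fell (37%), nearer the 25.2% and 42.6% of all coding genes. Total-count scaling left 6 risers in the matrix list, and upper quartiles gave 13 in the formation list. Acrv1, a matrix protein, was at 147, 186 and 163 CPM in PAC, 538, 508 and 442 in RS and 214, 215 and 226 in ES (log2 fold change of ES over PAC 0.40, adjusted p = 0.0195). Total counts ended that call (0.11, adjusted p = 0.55), as did limma and leaving out ES replicate 3 (0.0569), PAC replicate 1 (0.0763) or PAC replicate 3 (0.0574). Acr, the acrosomal protease acrosin, was not called at 46.3, 63.3 and 93.7 CPM in PAC and 28.4, 46.9 and 62.4 in ES (adjusted p = 0.115), but was lower with a replicate block (-0.57, adjusted p = 0.0383) and without ES replicate 3 (-0.85, adjusted p = 0.0257) or PAC replicate 1 (-0.8, adjusted p = 0.034). Crisp2, a sperm-coat and acrosome protein, was already at 5030, 4469 and 3982 CPM in PAC and reached 21030, 17710 and 14470 in ES, the highest CPM of any named coding gene that rose (log2 fold change 1.98, adjusted p = 1.82e-06). Prss55 and Prss37, serine protease family members of sperm, rose by 3.42 and 3.38.

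Izumo1, the sperm protein that binds the egg receptor Juno, was at 37.3, 45.4 and 43.8 CPM in PAC, 126 ± 9.36 in RS and 57.5, 65.9 and 68.8 in ES (log2 fold change 0.60, adjusted p = 0.00207), a rise not called with total counts (0.32, adjusted p = 0.123) or limma (adjusted p = 0.104 to 0.145). Izumo2 and Izumo3 rose by 1.52 and 1.42, while Izumo4 fell, with a log2 fold change of -1.04. Dpy19l2 and Spata16, linked to round-headed sperm when lost, fell, with log2 fold changes of -1.05 and -1.03. Tex101, a surface chaperone for ADAM proteins, fell from 298, 261 and 195 to 42.5, 50.9 and 47.2 CPM (log2 fold change -2.42, adjusted p = 1.56e-06). Of 31 ADAM and surface maturation genes 14 rose (45.2%) and 13 fell (41.9%), beside 25.2% and 42.6% of all coding genes. With upper quartiles 8 fell. Adam2, a fertilin subunit, fell, with a log2 fold change of -1.45. Ace, whose germinal form of angiotensin-converting enzyme is made in spermatids, went from 64.8, 114 and 115 to 1022, 822 and 1122 CPM (log2 fold change 3.33, adjusted p = 4.44e-07).

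Of 24 sperm ion transport genes 13 were lower (54.2%) and 6 higher (25%), beside 42.6% and 25.2% of all coding genes. Among CatSper subunits, which form the calcium channel of the tail, the pore gene Catsper1 was at 7.53, 16.96 and 29.3 CPM in PAC and 15.7, 27.1 and 45.5 in ES and was not called (adjusted p = 0.214), though without PAC replicate 3 it was higher (1.25, adjusted p = 0.039). The pore gene Catsper2 and the auxiliary Catsperb fell, with log2 fold changes of -0.92 and -1.10, and Catsper4 rose by 0.62. Atp1a4, the sperm sodium pump subunit, went from 132, 187 and 157 to 1602, 1077 and 1101 CPM (log2 fold change 2.99, adjusted p = 3.49e-07). Slc9c1, the sperm sodium-proton exchanger, fell from 445, 386 and 452 to 147, 198 and 178 CPM (log2 fold change -1.30).

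Glycolytic genes moved both ways. Sperm tails make ATP by glycolysis on the fibrous sheath, with germ cell isozymes for several steps. Gapdhs, the sheath-bound dehydrogenase, stood at 24.1, 55.4 and 71.9 CPM in PAC and 616, 898 and 1401 in ES (log2 fold change 4.27, adjusted p = 2.8e-05). Pgk2, the retrogene that replaces X-linked Pgk1, went from 331, 390.2 and 378 to 3141, 3080 and 2327 CPM (log2 fold change 2.96, adjusted p = 7.85e-08). Ldhc, the testis lactate dehydrogenase, was not called, at 1772, 1873 and 1956 CPM in PAC and 1641, 1764 and 1444 in ES (adjusted p = 0.16), though total counts called it lower (-0.5, adjusted p = 0.00545), as did limma. Beside 25.2% and 42.6% of all coding genes, 6 of 17 rose (35.3%) and 7 fell (41.2%) in the germ cell list. Slc2a3, a glucose transporter, was the largest fall in it, from 2237, 1803 and 1901 to 336, 489.8 and 450.1 CPM (log2 fold change -2.22, adjusted p = 1.58e-06).

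In the somatic-type list 12 of 20 rose (60%) and 7 fell (35%), beside 25.2% and 42.6% of all coding genes. Hk1, a hexokinase with a sperm-specific form tied to the sheath, went from 213, 279.5 and 359 CPM in PAC to 700.1 ± 51.1 in RS and 2273, 2608 and 3269 in ES (log2 fold change 3.26, adjusted p = 3.53e-07). Gpi1 and Pkm, for the second and the last step, rose by 4.34 and 3.83. Gapdh rose less, from 10.4, 11.3 and 11.6 to 21.3, 22.9 and 28.7 CPM (log2 fold change 1.13). Ldha fell from 2147, 1726 and 1506 to 954, 901 and 814 CPM (log2 fold change -1.01, adjusted p = 8.98e-05). Ldhb was at 8.93 ± 5.02 CPM in PAC, 2.31 ± 0.325 in RS and 65.2 ± 6.76 in ES, an order that the Sertoli marker sum below shared, and the part of other cells in its rise was not tested.

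**Figure D4:**
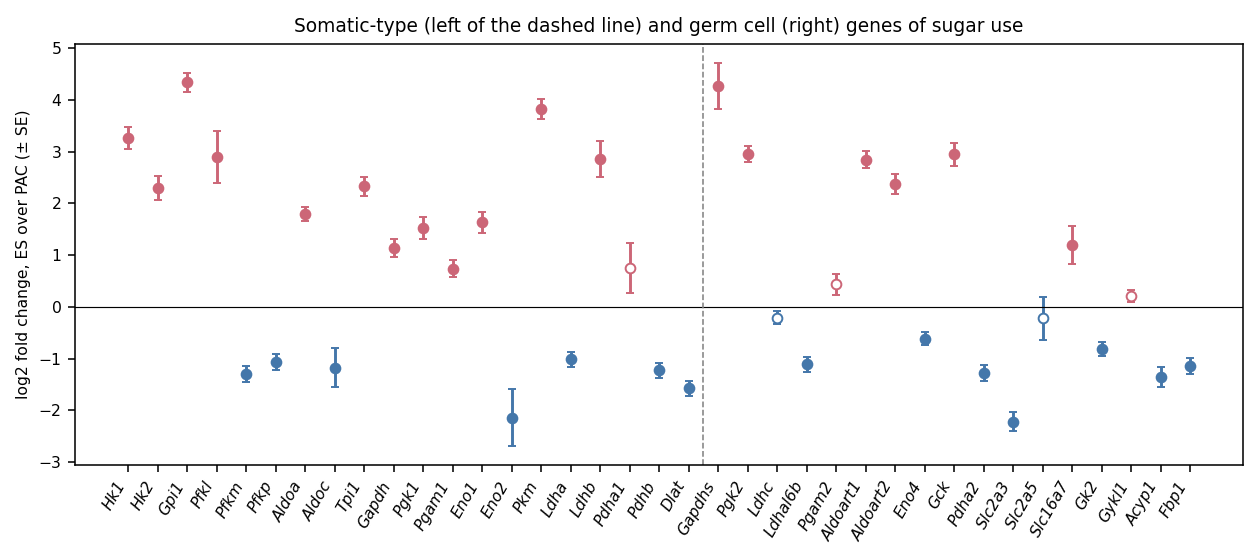
Log2 fold change of ES over PAC with its SE (bars) for the tested genes of the somatic-type glycolysis list (left of the dashed line) and the germ cell list (right). Filled points passed the test and open points did not. Gpi1, Pkm and Hk1 on the left and Gapdhs and Pgk2 on the right were among the largest gains, while Ldha and Slc2a3 fell.

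Respiration genes fell together. Of 76 subunits of the respiratory chain and ATP synthase encoded in the nucleus 54 were lower and 6 higher (median -0.89). Atp5b, the catalytic subunit of ATP synthase, went from 1063, 852 and 690.5 to 466, 473 and 393 CPM (log2 fold change -0.97, adjusted p = 0.000244), and Cox4i1 fell, with a log2 fold change of -1.19. The X-linked Ndufb11 and Cox7b rose, by 1.45 and 0.96. Mitochondrial ribosomal protein genes fell as a block, 60 of 78 lower and 3 higher (median -0.98). Mrpl24 went from 276, 217 and 184 to 84.5, 82.1 and 74.4 CPM (log2 fold change -1.49). Pdha2, the autosomal retrogene of the pyruvate dehydrogenase subunit, fell, with a log2 fold change of -1.27, and its X-linked parent Pdha1 was not called (log2 fold change 0.75, adjusted p = 0.192).

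Of 44 fatty acid oxidation and peroxisome genes 20 fell (45.5%) and 10 rose (22.7%), near the 42.6% and 25.2% of all coding genes, and 13 fell with upper quartiles. Hadha of the trifunctional protein fell, with a log2 fold change of -0.96. Acsl1, which activates long-chain fatty acids, was outside the lists and among the 10 most abundant coding genes that rose, from 283, 390.2 and 364 to 7720, 6682 and 6429 CPM (log2 fold change 4.33, adjusted p = 2.22e-08). Cers3, the ceramide synthase of very-long-chain species in spermatocytes, fell from 799.6, 634 and 521 to 106, 142 and 113 CPM (log2 fold change -2.43, adjusted p = 1.06e-06). Elovl2, the elongase for polyunsaturated chains, fell, with a log2 fold change of -1.01. Of 35 sterol and very-long-chain lipid synthesis genes 13 fell (37.1%) and 8 rose (22.9%), also near the shares of all coding genes.

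Polyamine control held a pair of large gains. Oaz3, the testis antizyme that restrains ornithine decarboxylase, was at 577, 700.2 and 550.3 CPM in PAC, 3053 ± 224 in RS and 20410, 14350 and 12430 in ES (log2 fold change 4.69 with an SE of 0.21, adjusted p = 3.66e-08). Azin2, an antizyme inhibitor, rose from 39.1, 51.5 and 34.9 to 1657, 1477 and 997 CPM (log2 fold change 5.04, adjusted p = 6.2e-08). The widely used relatives moved otherwise: Oaz2 and Azin1 fell, with log2 fold changes of -1.10 and -1.08, and Oaz1 was not called (adjusted p = 0.196). Odc1, the decarboxylase itself, rose from 359, 344 and 380.1 to 490.1, 485 and 580.4 CPM (log2 fold change 0.52), a call that total-count scaling ended at 0.24 (adjusted p = 0.164), as did limma.

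Redox genes rose in 17 of 32 cases (53.1%) and fell in 10 (31.2%), beside 25.2% and 42.6% of all coding genes. The germ cell members included Txndc2, a sperm thioredoxin, from 87.3, 114 and 81.9 to 1282, 642 and 587 CPM (log2 fold change 3.15, adjusted p = 5.53e-06). Gstm5, a glutathione transferase of the fibrous sheath, went from 4178, 3530 and 2946 to 16820, 13250 and 10910 CPM (log2 fold change 1.94). Prdx4, an X-linked peroxiredoxin, rose by 2.84. Gpx4, which forms part of the mitochondrial capsule, rose from 1162, 992 and 712 to 3017, 1927 and 1557 CPM (log2 fold change 1.18, adjusted p = 0.00117). Gstp1 and Gsta4, by contrast, were at 0.492 ± 0.0372 and 1.98 ± 0.527 CPM in RS, 1.85 ± 1.21 and 6.82 ± 2.65 in PAC and 11.7 ± 0.985 and 41.2 ± 7.73 in ES. Sertoli markers had the same order of cell types, with a summed level of 668 ± 68.5 CPM in ES, and their part in these rises was not tested.

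Protein disposal genes moved both ways. Of 50 ubiquitin pathway genes 17 rose (34%) and 19 fell (38%), beside 25.2% and 42.6% of coding genes. Scaling moved these counts to 20 and 11 with upper quartiles and to 11 and 27 with total counts. Klhl10, a spermatid adaptor of the CUL3 ligase, went from 166, 222 and 211 to 1659, 1508 and 1353 CPM (log2 fold change 2.92, adjusted p = 7.85e-08), with Cul3 higher by 0.78. Ube2k and Rnf133, a conjugating enzyme and a ligase, rose by 3.33 and 3.43. Proteasome genes fell in 33 of 47 cases and rose in 7, or in 4 with total counts (median -0.98). Psma8, the meiotic core subunit, fell from 355, 298 and 238 to 55.5, 74.8 and 56.7 CPM (log2 fold change -2.25, adjusted p = 1.23e-06). Psme4, the activator that takes acetylated histones to the proteasome, was at 957, 1040 and 1205 CPM in PAC and 1303, 1427 and 1463 in ES (log2 fold change 0.39, adjusted p = 0.0204), a rise that total-count scaling took to 0.11 (adjusted p = 0.55) and that was not called without ES replicate 2 or 3 (0.0525 and 0.0577), PAC replicate 1 or 2 (0.0803 and 0.0805), or by limma.

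Autophagy and lysosome genes rose in 15 of 53 cases (28.3%) and fell in 21 (39.6%), near the 25.2% and 42.6% of all coding genes. With ES and PAC alone 13 fell. Nbr1, an autophagy receptor, stood out at 201, 268 and 254 CPM in PAC and 4102, 3113 and 3488 in ES (log2 fold change 3.89 with an SE of 0.17, adjusted p = 3.08e-08). Gabarapl1 and Map1lc3a, which coat the autophagosome, rose by 2.73 and 1.45, and Becn1 and Pik3c3 of the initiating lipid kinase fell, with log2 fold changes of -1.02 and -1.53. Hspa1l, the spermatid HSP70, went from 72.9, 110.3 and 81.7 to 1452, 905 and 885 CPM (log2 fold change 3.61, adjusted p = 3.31e-07), and Hspa2, the spermatocyte HSP70 of the synaptonemal complex, fell from 613, 601 and 784 to 189, 309 and 396 (log2 fold change -1.16). Of 42 chaperone genes 12 rose (28.6%) and 19 fell (45.2%), near the shares of all coding genes. Tcp1 of the cytosolic chaperonin was the most abundant coding gene that fell, from 3906, 3419 and 3235 to 2478, 2421 and 2193 CPM (log2 fold change -0.57), a call lost with upper-quartile scaling (-0.27, adjusted p = 0.113) and with ES and PAC alone (adjusted p = 0.109).

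The secretory route fell in 41 of 62 genes and rose in 7, or in 11 with upper quartiles (median -0.93). Germ cell chaperones of the endoplasmic reticulum went opposite ways. Clgn, calmegin, which folds surface proteins such as fertilin, fell from 1318, 1149 and 1125 to 411, 466 and 437 CPM (log2 fold change -1.45, adjusted p = 2.29e-06). Calr3, the testis calreticulin, rose from 23.5, 27.2 and 21.9 to 208, 118 and 119.7 CPM (log2 fold change 2.62, adjusted p = 2.18e-06). Copa, a coat subunit of Golgi vesicles, fell, with a log2 fold change of -1.23.

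Spliceosome genes had the largest share of losses of the 47 pathway lists. Of 73 spliceosome genes 66 fell and 2 rose (median -1.36), against 42.6% and 25.2% of all coding genes. Sf3b1, which recognises the branch point, went from 329, 363 and 427 to 97.2, 166 and 163 CPM (log2 fold change -1.39, adjusted p = 7.7e-05). Prpf38b was the steepest, from 36.8, 39.8 and 51.1 to 3.67, 5.06 and 7.997 CPM (log2 fold change -2.93, adjusted p = 2.85e-06). The genes that rose, Snrpd1 and Snrpd2, encode proteins of the Sm ring and gained 1.003 and 0.96, with ES and PAC libraries overlapping for Snrpd2, which limma without a filter did not call (adjusted p = 0.0524). RNA polymerase and general factor genes fell in 43 of 60 cases and rose in 5, and Mediator genes in 22 and 4 of 33. Total counts left 1 riser among the polymerase genes, upper quartiles gave 7 and leaving out a library 3 to 5. Limma without a filter left 1 riser among Mediator genes. Tbp, the TATA-binding protein that testis makes in excess, went from 286, 281 and 290.2 to 95.1, 119 and 135 CPM (log2 fold change -1.29, adjusted p = 1.24e-05). Polr2a, the largest subunit of RNA polymerase II, varied between replicates and was not called (12.2, 24.7 and 53.8 CPM in PAC, 11.9, 21.3 and 28.7 in ES, adjusted p = 0.347).

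Mybl1, the master regulator of the pachytene programme, fell from 352, 304 and 333 to 82.4, 118 and 119 CPM (log2 fold change -1.63, adjusted p = 6.19e-06). Crem, the spermatid activator, was at 467, 456 and 435 CPM in PAC, 651 ± 33.8 in RS and 415, 404 and 427 in ES and was not called at the ends (adjusted p = 0.353), though total counts called it lower (-0.41, adjusted p = 0.0143), as did limma. Fhl5, the coactivator of CREM also called ACT, rose from 153, 194 and 146 to 1068, 639.5 and 589.9 CPM (log2 fold change 2.22, adjusted p = 6.22e-06). Spz1, a testis bHLH-zip factor, rose by 3.42. Of 31 such stage regulators 7 rose (22.6%) and 10 fell (32.3%), beside 25.2% and 42.6% of all coding genes. With upper quartiles 6 fell.

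More factors that store mRNA fell than rose. Of 44 storage genes 24 fell (54.5%) and 5 rose (11.4%), beside 42.6% and 25.2% of all coding genes, and 15 were not called. Upper quartiles gave 19 that fell and 11 that rose. Ybx2, the Y-box protein that holds spermatid mRNAs silent, was not called at 639, 612 and 596 CPM in PAC and 679, 512 and 609 in ES (adjusted p = 0.821), though total counts called it lower (-0.34, adjusted p = 0.0307). Papolb, the testis cytoplasmic poly(A) polymerase, was not called either, at 934, 814 and 724 CPM in PAC and 1069, 722 and 674 in ES (adjusted p = 0.986). Fxr1, which activates stored mRNAs in late spermatids, rose from 261, 284 and 339 to 1163, 1079 and 1105 CPM (log2 fold change 1.92, adjusted p = 5.33e-07). Cpeb3 rose by 3.74 and Samd4, a SMAUG family repressor, by 1.91. Boll and Ptbp2, both needed in meiosis or soon after, fell, with log2 fold changes of -1.20 and -1.71. Decay genes fell in 28 of 49 cases and rose in 5, or in 9 without PAC replicate 3: Cnot1, the scaffold of the deadenylase complex, went from 862, 931 and 1355 to 292, 509 and 653 CPM (log2 fold change -1.11, adjusted p = 0.00353), and the deadenylase Cnot6l rose by 1.90.

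Most cytosolic ribosomal protein genes did not pass the test. Of 78 tested 43 were not called, 26 fell (33.3%) and 9 rose (11.5%), with a median of -0.23. The shares of all coding genes were 42.6% and 25.2%. Upper quartiles gave 12 that fell, total counts 43, and leaving out a library 16 to 36, the most without ES replicate 1. Rplp0 was at 1440, 1155 and 888 CPM in PAC and 1250, 932 and 799 in ES (adjusted p = 0.336) and was called lower with total counts (-0.53, adjusted p = 0.0137). The germline paralog Rpl10l, which stands in for X-linked Rpl10 in meiosis, fell from 246, 189.9 and 143 to 84.8, 83.6 and 74.8 CPM (log2 fold change -1.25, adjusted p = 8.45e-05). Among 54 translation factors 12 rose (22.2%) and 21 fell (38.9%), near the 25.2% and 42.6% of all coding genes. Eif4e, the cap-binding protein, rose from 104, 103 and 115 to 276, 208 and 290.1 CPM (log2 fold change 1.27, adjusted p = 1.61e-05), and Eif4g1 and Eef1d by 2.09 and 2.68. Eef1a1 was not called at 5892, 5052 and 4359 CPM in PAC and 5846, 4596 and 4353 in ES (adjusted p = 0.796), though total counts called it lower (-0.35, adjusted p = 0.0255), as did limma.

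Nuclear transport genes fell in 34 of 60 cases (56.7%) and rose in 11 (18.3%), beside 42.6% and 25.2% of all coding genes. With upper quartiles 17 rose. Kpna2, an importin alpha of spermatocytes and round spermatids, fell from 1430, 1304 and 1172 to 679, 815 and 688 CPM, with 1741 ± 41.9 in RS (log2 fold change -0.84, adjusted p = 0.000148). Ipo5 rose from 293, 447 and 659.8 to 1124, 1058 and 1557 CPM (log2 fold change 1.42, adjusted p = 0.000581). Rcc1, the exchange factor of Ran on chromatin, rose by 3.31 and Rangap1, which activates the GTPase of Ran, by 2.98.

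Of 12 synaptonemal complex and HORMA domain genes 9 were lower and 2 higher. Upper quartiles left 5 lower, and 1 was higher with total counts and without ES replicate 1, PAC replicate 2 or PAC replicate 3. Sycp3, a lateral element protein, was at 302, 263 and 237 CPM in PAC, 58.2 ± 5.02 in RS and 55.3, 90.2 and 66.99 in ES (log2 fold change -1.92 with an SE of 0.18, adjusted p = 4.99e-06). Hormad1, which marks unsynapsed axes, went from 349.7, 305 and 251 to 68.4, 95.2 and 78.4 CPM (log2 fold change -1.90, adjusted p = 2.46e-06). Sycp1, the transverse filament, fell, with a log2 fold change of -0.42, and not with upper-quartile scaling (-0.11, adjusted p = 0.477), with ES and PAC alone (adjusted p = 0.305) or without ES replicate 1 (0.0545), PAC replicate 2 (0.0596) or PAC replicate 3 (0.0628). Syce2, of the central element, ran against the rest, from 45.3, 55.3 and 44 CPM in PAC to 137 ± 7.02 in RS and 538, 472 and 439.8 in ES (log2 fold change 3.33, adjusted p = 3.25e-08). No library of one cell type reached a level of the other for any of these.

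Break formation and strand exchange genes fell in 12 of 20 cases and rose in 2. Without ES replicate 1 there was 1 riser. Spo11, which cuts the DNA, went from 189, 156 and 139 to 42.3, 49.6 and 49.8 CPM (log2 fold change -1.77, adjusted p = 1.72e-06). Dmc1, the meiotic recombinase that peaks before pachytene, was low throughout, at 1.74, 2.38 and 1.23 CPM in PAC and 5.41, 3.51 and 3.88 in ES (log2 fold change 1.25, adjusted p = 0.00303). Crossover genes fell in 10 of 14 cases, Mlh3 among them with a log2 fold change of -1.86. Damage signalling and sex body genes had no riser and 16 of 20 lower (median -1.50), and upper-quartile scaling gave 1 riser. H2ax, the histone phosphorylated over the silenced X and Y, went from 253, 224 and 179 to 41.02, 59.02 and 46.8 CPM (log2 fold change -2.16, adjusted p = 6.74e-06), and Mdc1, which spreads that mark, fell, with a log2 fold change of -1.40. Of 13 cohesin genes 5 were lower (38.5%) and none higher by edgeR, beside 42.6% and 25.2% of all coding genes. Upper quartiles gave 2 lower and 3 higher. Rec8, the meiotic kleisin, was not called at 15.6, 24.8 and 24.1 CPM in PAC and 15.5, 22.2 and 20.8 in ES (adjusted p = 0.558).

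Most division and replication genes fell. Of 30 cyclins, kinases and checkpoint genes 24 fell and 1 rose (median -1.33). Risers numbered 0 with total counts, 2 with upper quartiles and 0 to 1 when a library was left out. Ccna1, the cyclin of the first meiotic division, was at 349.8, 293 and 271 CPM in PAC, 337 ± 7.92 in RS and 180.4, 185 and 165 in ES (log2 fold change -0.79, adjusted p = 0.000241). Cdk1 went from 79.8, 66.9 and 51.3 to 24.5, 26.7 and 19.4 CPM (log2 fold change -1.49, adjusted p = 3.38e-05). Ccne2, a cyclin E of spermatocytes, fell, with a log2 fold change of -2.31. Of 40 replication genes 27 fell and 3 rose. Pcna, the sliding clamp, went from 295, 251 and 198 to 91.7, 112 and 89.95 CPM (log2 fold change -1.34), and Fen1, the flap nuclease, rose from 2.33, 2.92 and 2.02 to 20.3, 20.4 and 24.3 CPM (log2 fold change 3.16, adjusted p = 2.46e-07).

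The piRNA pathway had the lowest median of the pathway lists, -1.52, with 19 of 25 genes lower and 1 higher. PIWI proteins carry piRNAs, small RNAs made in large amounts at pachytene, and the title of the series names 1 of them. Piwil1, the pachytene PIWI protein MIWI, was at 143, 143 and 204 CPM in PAC, 7.96, 5.71 and 8.12 in RS and 23.6, 32.7 and 37 in ES (log2 fold change of ES over PAC -2.39 with an SE of 0.22, adjusted p = 3.68e-06). Its ES libraries lay below all PAC libraries and above all RS libraries. Piwil2 fell, with a log2 fold change of -1.56, as did Mov10l1, the helicase that feeds precursors to PIWI proteins, with -1.75. Mael, a germ granule protein, was abundant at both ends, 2993, 2617 and 2386 CPM in PAC and 1938, 1675 and 1623 in ES (log2 fold change -0.61, adjusted p = 0.00183), a call lost with upper quartiles (-0.31, adjusted p = 0.103) and with ES and PAC alone (adjusted p = 0.0928). Gtsf1 was the member that rose, by 0.70, and total-count scaling ended that call (0.42, adjusted p = 0.102), as did limma on log2(FPKM + 0.1).

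Among coding genes with ES and PAC libraries apart and at least 10 CPM on 1 side, several of the 10 steepest falls were in abundant PAC genes that were lowest in RS. Cyp19a1, the aromatase that makes estrogen, went from 1253, 1110 and 1298 CPM in PAC to 18.2, 14.99 and 19.7 in RS and 63.7, 77.3 and 73.2 in ES (log2 fold change of ES over PAC -4.09 with an SE of 0.16, adjusted p = 2.22e-08). C2cd4b, Chst1 and Fam174b fell, with log2 fold changes of -4.06, -3.90 and -3.70, and their RS levels were 20.3 ± 2.81, 9.98 ± 1.23 and 15 ± 1.87 CPM against 85.8 ± 17.3, 46.5 ± 6.34 and 63.2 ± 5.09 in ES. A set of 37 coding genes was chosen on PAC and RS values, with at least 20 CPM in PAC and RS at most 1 in 20 of it. Their ES level was a median of 16.1% of PAC (quartiles 8.99% and 21.3%), against 3.81% in RS. In 36 of the 37 ES was higher than RS, but choosing a low RS level favours that order, so the count is no test. The Leydig marker sum below was also highest in PAC and lowest in RS. The part of other cells in these levels was not tested. Timm29, an inner mitochondrial membrane protein gene, had no counts in ES or RS and 14.96, 12.6 and 10.9 CPM in PAC, at least 88.1-fold lower in ES against the floor of 3 counts per library.

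The largest rises by the same rule, beside globin genes, ranged widely in level. Tmod4, a tropomodulin, went from 0.218, 0.402 and 0.216 to 14.3, 10.3 and 10.9 CPM (log2 fold change 5.40, adjusted p = 1.43e-07). Car2, carbonic anhydrase 2, reached 736, 552 and 631 CPM from 12.8, 20.9 and 16.9 (log2 fold change 5.24, adjusted p = 2.22e-08). Acte1 went from 24.7, 35.8 and 20.2 to 1333, 892 and 855 CPM (log2 fold change 5.26). Phospho1, a phosphatase of phosphocholine, rose by 5.17, with ES replicate 3 the highest at 91.5, 180.3 and 274 CPM. Fhl4 and Pebp1 rank among the 10 most abundant coding genes that rose with log2 fold changes of 0.99 and 1.75, from 4734 ± 573 and 1643 ± 283 CPM in PAC.

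The X chromosome gained where autosomes lost. Of 661 X-linked coding genes tested 345 rose (52.2%) and 10 fell (1.51%), with a median of 0.95, against 3382 higher (24.2%) and 6307 lower (45.1%) of 13992 on autosomes, where the median was -0.47. The X is silenced in the pachytene sex body. On single autosomes the share of risers ran no higher than 27.2%, on chromosome 6. Gm614, an X-linked gene, went from 20.5, 26.02 and 15.6 to 1045, 706 and 564 CPM (log2 fold change 5.22, adjusted p = 1.38e-07). Tspan6, a tetraspanin, went from 11.5, 15.7 and 13.3 to 644, 395 and 339.9 CPM (log2 fold change 5.09). Not all X genes kept what they had gained: Tsga8 was at 172, 209 and 179 CPM in PAC, 589 ± 81 in RS and 264, 243 and 249 in ES (log2 fold change of ES over PAC 0.43, adjusted p = 0.0168). H2ab3, an X-linked histone variant of spermatids, ended below PAC, at 2.81, 2.71 and 2.56 CPM from 3.58, 4.64 and 3.60.

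The Y chromosome moved little between the ends, with 14 coding genes higher and 6 lower of 183. Those counts moved with scaling, to 51 and 3 with upper quartiles and 6 and 17 with total counts. Many Y genes are multicopy, and some pairs, such as Rbm31y and Gm21379, carried identical values in every library, so each copy is not separate evidence. Uty and Zfy2 were among the Y genes that rose. Uty, a histone demethylase relative, went from 6.87, 6.43 and 5.87 to 12.5, 12.9 and 12.02 CPM with 16.8 ± 2.05 in RS (log2 fold change 0.97, adjusted p = 0.000229). Zfy2, a zinc finger gene that acts at the meiotic divisions, went from 3.83, 5.58 and 5.91 to 12.1, 11.2 and 12.6 CPM (log2 fold change 1.23, adjusted p = 0.000191).

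With TMM factors over all features, RefSeq non-coding transcripts split the other way from coding genes, but this depended on scaling. Of 4295 tested 1348 were higher (31.4%) and 1003 lower (23.4%). When they were scaled and tested alone the split was 1055 and 1106, and with total counts it was 1159 and 1209. The more abundant of the pair of 1700027A15Rik transcripts was the most abundant of the 10 steepest named rises, from 59.9, 76.4 and 45.4 to 2866, 2030 and 1384 CPM (log2 fold change 5.11, adjusted p = 6.91e-07). Gm10619 fell from 109, 106 and 123 to 5.86, 5.71 and 7.91 CPM (log2 fold change -4.11, adjusted p = 3.66e-08), and D130017N08Rik from 108, 94.1 and 98.5 to 5.62, 5.67 and 6.72 (log2 fold change -4.06). None of the 3 had overlapping groups.

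Of 32 transcripts of widely expressed or imprinted lncRNAs 16 fell and 5 rose. Mir17hg, which hosts the miR-17 cluster, went from 9.42, 9.69 and 8.43 to 0.216, 0.178 and 0.284 CPM (log2 fold change -5.32, adjusted p = 1.55e-07). The short form of Neat1, a gene of paraspeckle RNA, fell from 13.2, 13.9 and 18.4 to 1.79, 1.70 and 1.26 CPM (log2 fold change -3.26, adjusted p = 1.52e-06). Another Neat1 transcript was not called. It was lower with a replicate block (log2 fold change -1.85, adjusted p = 0.00137), with limma, and without ES replicate 3 or PAC replicate 1. Malat1, of nuclear speckles, fell, with a log2 fold change of -1.62 with replicate 3 highest in both cell types, 155, 239.8 and 474 CPM in PAC and 38.8, 88.6 and 155 in ES, so that 1 ES library reached the lowest PAC level (adjusted p = 0.0194). Its call was lost without ES replicate 2 (-1.58, adjusted p = 0.0534), without PAC replicate 3 (-1.09, adjusted p = 0.0749) and without a filter on low counts (-1.64, adjusted p = 0.0666). The 3 annotated Tug1 transcripts went 3 ways, with log2 fold changes of 1.34, -1.38 and 0.22, the last not called (adjusted p = 0.436), and shared exons make the split of reads between them uncertain. Snhg3 and Snhg5, hosts of small nucleolar RNAs, fell, with log2 fold changes of -1.95 and -2.43.

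Assembled transcripts, which have no symbol or coordinates here, had 2852 of 6704 higher (42.5%) and 1387 lower (20.7%). The steepest rises of any feature were theirs and had ES replicate 1 highest in the examples here. MSTRG.26573.1 was at 0.776, 0.222 and 0.166 CPM in PAC and 14350, 2630 and 4491 in ES (log2 fold change 14.09, adjusted p = 1.31e-05). MSTRG.26569.2 reached 22450, 2234 and 7111 CPM from 4.15, 1.55 and 1.06. The assembled transcripts that rose took 9.97%, 3.52% and 4.89% of the counts of ES replicates 1, 2 and 3, against 0.737% ± 0.0274 in PAC. Without ES replicate 1, 2619 assembled transcripts were higher and 1339 lower.

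Markers of other testis cells were present and moved with the comparison. All 18 Sertoli cell markers tested of 20 were higher in ES, and their summed level was 192, 131 and 75.3 CPM in PAC, 66.05 ± 2.79 in RS and 696, 719 and 590.3 in ES. Amhr2, Cst9 and Clu led them, at 186 ± 37.3, 102 ± 18.7 and 99.99 ± 13.5 CPM in ES, while the defining Sox9 was at 1.83 ± 0.528 CPM and Fshr and Amh were too low to test. Of 17 macrophage and blood markers 13 rose of 15 tested, to a sum of 219.9 to 318 CPM in ES from 35.6 to 48.1 in PAC, and the globin gene Hbb-bs went from 0.770, 0.358 and 0.360 to 100.8, 91.3 and 63.6 CPM. Leydig cell markers were highest in PAC, with a sum of 126 to 166 CPM against 31.1 to 39.2 in ES and 2.65 to 3.01 in RS, and 10 of 11 fell. Cyp17a1, a steroidogenic enzyme of Leydig cells, was at 20.5, 12.1 and 15.6 CPM in PAC and 1.62, 0.888 and 1.04 in ES. Of the 17 tested of 18 spermatogonial markers 4 rose and 1 fell, and of the 11 tested of 14 peritubular and vascular ones 5 and 2. The part of these cells in gene groups that moved with them was not tested.

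**Figure D5:**
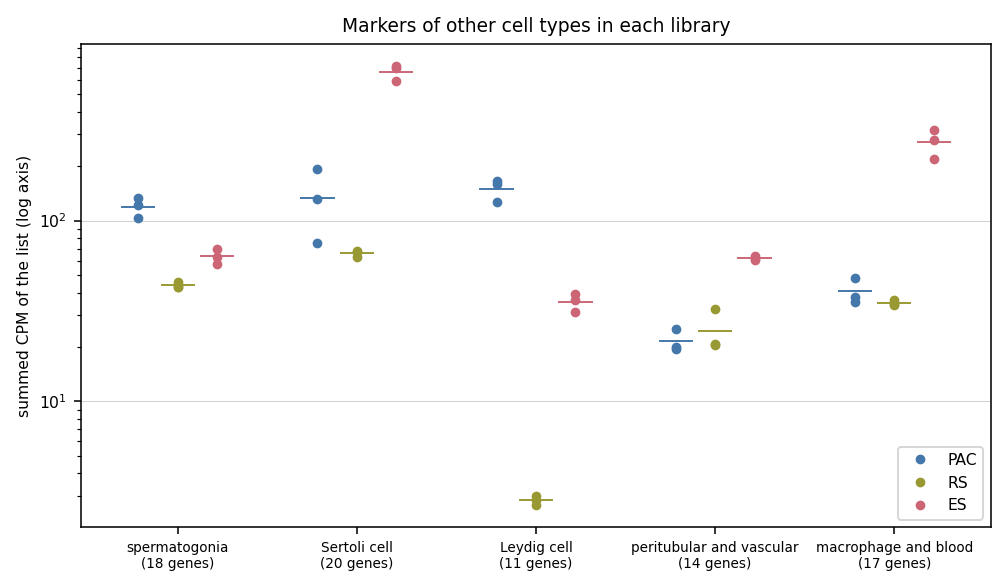
Summed CPM (log axis) of 5 marker lists in each library, points for libraries and short lines for means of 3. Sertoli and macrophage and blood sums were highest in the 3 ES libraries, and the Leydig sum was highest in the 3 PAC libraries.

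Gene structure separated gains from losses only slightly. Coding genes that rose 4-fold or more had a median transcript length of 2588 bases and 7 exons, and those that fell 4-fold or more 2716 bases and 6 exons. All that rose had 2911 bases and 8 exons, and all that fell 2961 bases and 9 exons. All tested had 3003 bases and 9 exons, by the longest GENCODE transcript for 98.6% of the genes. Genes of at most 1000 bases were called lower less often, 337 of 1089 (30.9%), than those above 2000 and up to 4000 bases, 2617 of 5632 (46.5%). So were genes above 8000 bases, 272 of 834 (32.6%). These are descriptions over genes, with no test.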

How the data were processed

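RNA of 9 libraries, 3 each of PAC, RS and ES, was measured. The authors deposited estimated counts per feature, called raw counts in their label although 18.85% are not whole, and FPKM values whose totals and lengths are not stated. HISAT2, StringTie and build GRCm38.p6 are named in the submitters' processing notes, with no versions. Symbols and coordinates came from a RefSeq table of the same build: 21726 NCBI genes and 15734 RefSeq transcripts matched.

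Counts were rounded, filtered with filterByExpr (minimum count 10) and TMM-scaled. ES was compared with PAC by edgeR 4.0.16's quasi-likelihood test on all 9 libraries (two-sided, common biological coefficient of variation 0.24), Benjamini-Hochberg adjusted over 26030 features and called below 0.05. Counts were simulated for this comparison over 25412 features, with 67, 67 and 66 of them changed by 1.5-, 2- and 4-fold. The test recovered 1.5% of changes of 1.5-fold, 32.8% at 2-fold and 80.3% at 4-fold, and made 5 false calls. The adjusted cutoff is stricter where so few features change, so these shares do not give the recovery in the data. A floor of 3 counts per library came to 0.146 CPM in ES and 0.104 in PAC and covers counting error only. Named genes were lead genes of 52 lists, each list's most abundant and most changed called members, and the 10 steepest and most abundant called features, the steepest with groups apart and at least 10 CPM. Others were named after their values were seen. Members and lists were chosen with earlier results of these data known. DESeq2 1.42.0, limma 3.58.1, other scalings and filters, a replicate block and leaving out libraries were alternatives. R was 4.3.3 and Python 3.11.15, with pandas 2.3.3 and figures by matplotlib 3.10.9.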

Additional observations from a re-analysis of the deposited data

How the results depend on the processing

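Over the 22 alternatives, 290 of 327 named features with a call kept it wherever a value could be had, 37 lost it at least once and 28 uncalled ones gained one. Agtpbp1 alone turned sign, to -0.02 on log2(FPKM + 0.1), on log2(FPKM + 1) and without a filter. Counts over all features stayed within 1.5 times of 7976 and 8778, with limma on log2(FPKM + 0.1) at 7133 and 10262 and DESeq2's test at 8405 and 8348. RefSeq non-coding transcripts lower (1003) came to 1602 with limma on log2(FPKM + 0.1) without a filter. Counts on X and Y moved most. X-linked features lower (11) came to 6 with upper quartiles, 29 with total counts, 5 with ES and PAC alone, and 34, 33 and 27 with limma on log2(FPKM + 0.1), the same without a filter and log2(FPKM + 1). For X-linked coding genes (10) these were 5, 27, 4, 32, 29 and 25. Y-linked features higher (19) came to 60 with upper quartiles, 8 with total counts and 8, 10 and 8 with the limma fits. Those lower (6) came to 3 with DESeq2 size factors, 3, 17 and 2 in the order above, and 20, 13 and 15. For Y-linked coding genes, 14 higher and 6 lower, they were 51, 6, 5, 8 and 5 higher, and 3, 3, 17, 2, 20, 13 and 14 lower. The cause of these moves was not tested. Leaving out a library gave 11 to 19 X-linked features lower (10 to 15 for coding genes), 10 to 37 Y-linked features higher and 4 to 11 lower, and 7 to 31 and 4 to 11 for coding genes. The most X losses and Y gains came without ES replicate 3, the fewest Y gains without PAC replicate 1 and the most Y losses without ES replicate 2. Deviations of same-numbered ES and PAC libraries correlated across features at 0.185, -0.024 and 0.273 for replicates 1, 2 and 3. For ES and PAC libraries of unlike number the values ran from -0.254 to 0.088. The labels do not say whether replicate numbers pair ES with PAC, so the main fit took them as unpaired. With a replicate block 8025 features were higher and 8981 lower. In simulation 32.8% of 2-fold changes were recovered, with no split by level and with far fewer changed features than were called in the data.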
